A study of Mus musculus with 62 samples.

Results

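The 9 genes described here make, package, take up and break down the monoamine transmitters, among them dopamine, noradrenaline and serotonin. They were chosen as a list by gene identifier: Th, Ddc, Gch1, Pts, Qdpr, Slc18a2, Slc6a3, Maoa and Maob. They are 9 of the 18821 genes listed in at least 1 of the liver, prefrontal cortex and striatum count tables, and the rule uses no measured value, although the list was drawn up with earlier results of these data known. The prefrontal cortex and striatum tables list all 9, and the liver table lists 7, with no row for Th or Slc6a3. A test needs enough reads, and a filter on low counts left 7 of the 7 listed genes in the liver, 8 of 9 in the prefrontal cortex and 8 of 9 in the striatum. Slc6a3 was the gene left out in both brain regions.

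RNA was sequenced from 3 tissues of female mice of the inbred C57BL/6 strain that had been given the MARBLES mixture of polychlorinated biphenyls (PCBs) by mouth. PCBs are persistent industrial chemicals. The treatment label gave 4 groups, namely vehicle, which stands for 0 mg/kg, and 0.1, 1 and 6 mg/kg of the mixture, with no genotype other than the strain in any group. The liver had 4, 4, 6 and 6 libraries in that order, and each brain region had 4, 5, 6 and 6. Age and the length of dosing are not given in the sources used here. The labels describe punches of brain tissue, so a brain library holds a mixture of cells. They name poly(A) capture or ribosomal RNA removal as the way messenger RNA was enriched, without saying which. The comparisons ask whether transcripts of these genes differ between vehicle and each dose, and whether tissues differ in the effect of the highest dose.

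Dopamine is made from tyrosine in a pair of steps. Tyrosine hydroxylase (Th) makes L-DOPA and sets the pace, and aromatic L-amino acid decarboxylase (Ddc) turns L-DOPA into dopamine and 5-hydroxytryptophan into serotonin. Th needs the cofactor tetrahydrobiopterin, which GTP cyclohydrolase (Gch1) and 6-pyruvoyltetrahydropterin synthase (Pts) help to build and dihydropteridine reductase (Qdpr) regenerates. The vesicular transporter VMAT2 (Slc18a2) loads monoamines into vesicles, the dopamine transporter (Slc6a3) takes dopamine back up, and the monoamine oxidases Maoa and Maob break the amines down. Dopamine neurons have their cell bodies in the midbrain and send axons to the striatum and the prefrontal cortex, so that most of their messenger RNA lies outside both regions.

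The bases that precede the start of transcription are shown for the 4 genes on which the results below turn. Each line holds the 250 bases before a RefSeq start in GRCm38.p6 (mm10), read 5′ to 3′ along the gene's own strand, which is the minus strand in every case. Capitals mark matches to the searched motifs GGGCGG (GC box), CCAAT (the box named after it), TATAAA (the core of a TATA box), TGACGTCA (cyclic AMP response element), AAAGGTCA (the Nurr1 response element), TTATGNAA (D-box) and CACGTG (E-box), on either strand. Ddc has 2 lines because RefSeq gives it a distal and a proximal start, and alternative first exons of Ddc are known to be used in neuronal and in other tissues.
Ddc, distal start, chr11:11898145-11898394: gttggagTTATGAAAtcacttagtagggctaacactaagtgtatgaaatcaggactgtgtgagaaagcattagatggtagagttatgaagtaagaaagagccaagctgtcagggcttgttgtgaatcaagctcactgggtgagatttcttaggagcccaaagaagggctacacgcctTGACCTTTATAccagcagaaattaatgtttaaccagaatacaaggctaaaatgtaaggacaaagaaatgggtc
Ddc, proximal start, chr11:11890409-11890658: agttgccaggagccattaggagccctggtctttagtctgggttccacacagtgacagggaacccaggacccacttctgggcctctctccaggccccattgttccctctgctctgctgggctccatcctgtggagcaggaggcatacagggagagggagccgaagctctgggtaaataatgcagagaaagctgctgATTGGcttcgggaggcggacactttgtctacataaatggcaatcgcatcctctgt
Qdpr, chr5:45450230-45450479: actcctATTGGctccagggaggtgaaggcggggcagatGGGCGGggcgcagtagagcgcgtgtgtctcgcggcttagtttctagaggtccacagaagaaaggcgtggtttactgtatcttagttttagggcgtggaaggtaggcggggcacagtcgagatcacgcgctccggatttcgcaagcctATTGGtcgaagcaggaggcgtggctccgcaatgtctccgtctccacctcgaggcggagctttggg
Gch1, chr14:47189414-47189663: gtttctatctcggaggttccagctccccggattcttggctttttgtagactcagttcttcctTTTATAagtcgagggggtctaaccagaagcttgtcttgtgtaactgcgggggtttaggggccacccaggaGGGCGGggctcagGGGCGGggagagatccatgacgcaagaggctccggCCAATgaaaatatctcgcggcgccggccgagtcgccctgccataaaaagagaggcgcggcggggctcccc
Th, chr7:142899996-142900245: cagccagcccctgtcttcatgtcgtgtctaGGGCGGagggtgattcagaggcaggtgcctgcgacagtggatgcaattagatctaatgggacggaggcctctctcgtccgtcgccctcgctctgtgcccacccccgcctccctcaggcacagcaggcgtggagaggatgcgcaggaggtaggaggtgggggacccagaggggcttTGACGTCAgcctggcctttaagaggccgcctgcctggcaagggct

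The sequences differed in base composition. The Qdpr stretch held 21 CpG dinucleotides at 59.6% GC and the Gch1 stretch held 17 at 59.2%, against medians of 6 CpG and 52.4% GC over 32536 RefSeq promoters of the same length. The distal Ddc stretch held 1 CpG at 40.8% GC, and the proximal stretch held 4 at 56%. In the distal Ddc stretch the capitals TTATGAAA are a D-box match, and the run TGACCTTTATA is an AAAGGTCA match and a TATA box match on the opposite strand that overlap. A D-box match was present in 3.07% of all promoters and an AAAGGTCA match in 1.35%. Th carried TGACGTCA at bases -45 to -38 from its start, a motif that 1.56% of promoters held. GC boxes, present in 32.97% of promoters, and CCAAT boxes, present in 33.81%, made up most of the other matches. The xenobiotic response element TNGCGTG, the RORE, HNF1, HNF4, antioxidant and glucocorticoid motifs were searched too and had no match in these lines, which says only that those letters are not there. A match is a run of letters and was not tested as a binding site, and the counts per gene do not separate the 2 starts of Ddc.

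Total counts were 7.38 to 10.2 M (M for 10⁶ counts) in liver, 8.72 to 12.14 M in prefrontal cortex and 8.28 to 12.02 M in striatum. The defining markers reached their highest values in the labelled tissues, but the ranges of the 2 brain regions overlapped. Alb, the main protein of hepatocytes, was at 61680 to 100700 CPM (counts scaled to a total of 10⁶) in the liver. Slc17a7 of cortical excitatory neurons was at 1081 to 1824 CPM in the prefrontal cortex and at 41.7 to 1293 CPM in the striatum. Adora2a of striatal projection neurons was at 166.5 to 429.2 CPM in the striatum and at 52.4 to 180.9 CPM in the prefrontal cortex. The summed level of 8 striatal neuron markers ran from 943.9 to 3041 CPM in prefrontal cortex libraries and from 2779 to 6671 CPM in those of the striatum, so the ranges met. The summed level of 7 cortical neuron markers in the striatum ran from 127 to 1759 CPM. In the liver, 6 neuron markers summed to 6.14 to 52.8 CPM, against 5064 to 6064 CPM in the prefrontal cortex. Of 8 midbrain dopamine neuron markers other than the 9 genes, 7 were listed in the striatum, where they summed to 143 to 335 CPM. Most of that sum was Drd2, also a marker of striatal neurons, with 1138 to 2885 counts, followed by Aldh1a1 with 141 to 535 and Nr4a2 with 55 to 336. Pitx3 had 0 to 7 counts, Lmx1b 0 to 6, En1 0 to 5 and Chrna6 0 to 3 in the striatum libraries. In the prefrontal cortex 6 of the 8 were listed and summed to 184 to 260 CPM, with 420 to 1381 counts of Nr4a2, while Pitx3 had 0 to 2 counts and Chrna6 0 to 3. Tph2, which marks serotonin neurons, had 2 to 21 counts in the striatum and 5 to 22 in the prefrontal cortex.

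The genes for dopamine itself were low in the brain libraries. In the striatum Th had 76 to 189 counts per library, and in the prefrontal cortex it had 19 to 58. Ddc had 110 to 301 counts in the striatum and 22 to 69 in the prefrontal cortex. Slc18a2 had 46 to 156 counts in the striatum, 25 to 76 in the prefrontal cortex and 2 to 23 in the liver. Gch1 was low in every brain library, with 7 to 29 in the striatum and 6 to 21 in the prefrontal cortex, and it had 465 to 1996 counts in the liver. Qdpr was the deepest of the 9, with 1355 to 8411 counts in the liver.

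Slc6a3, the dopamine transporter, was close to the limit of detection. It had 44 counts over the 21 libraries of the prefrontal cortex together, and 6 libraries had 0 reads, each of which allows a level of up to 0.286 to 0.342 CPM (3 counts, counting error only). The vehicle libraries had 1, 2, 0 and 6 counts and the 0.1 mg/kg libraries had 0, 2, 1, 0 and 3. At 1 mg/kg the counts were 2 to 6, and at 6 mg/kg they were 0 to 3. The 1 mg/kg counts lay within the vehicle range, and 5 of the 6 libraries at 6 mg/kg had 0 or 1. In the striatum Slc6a3 had 107 counts over 21 libraries and 1 library at 0, with a mean of 0.533 ± 0.325 CPM in the 4 vehicle libraries and of 0.448 ± 0.369 CPM in the 6 libraries at 6 mg/kg (SD). The low-count filter kept it out of the main tests. Without that filter its log2 change at 6 mg/kg was -1.25 in the prefrontal cortex (95% interval -3.06 to 0.55, edgeR adjusted p = 0.740) and -0.25 in the striatum (-1.49 to 1.00, edgeR adjusted p = 0.887), so the intervals were wide on both sides of 0. At 1 and 0.1 mg/kg it was 0.83 and -0.81 in the prefrontal cortex and 0.07 and 0.07 in the striatum, and none of these passed.

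**Figure D1:**
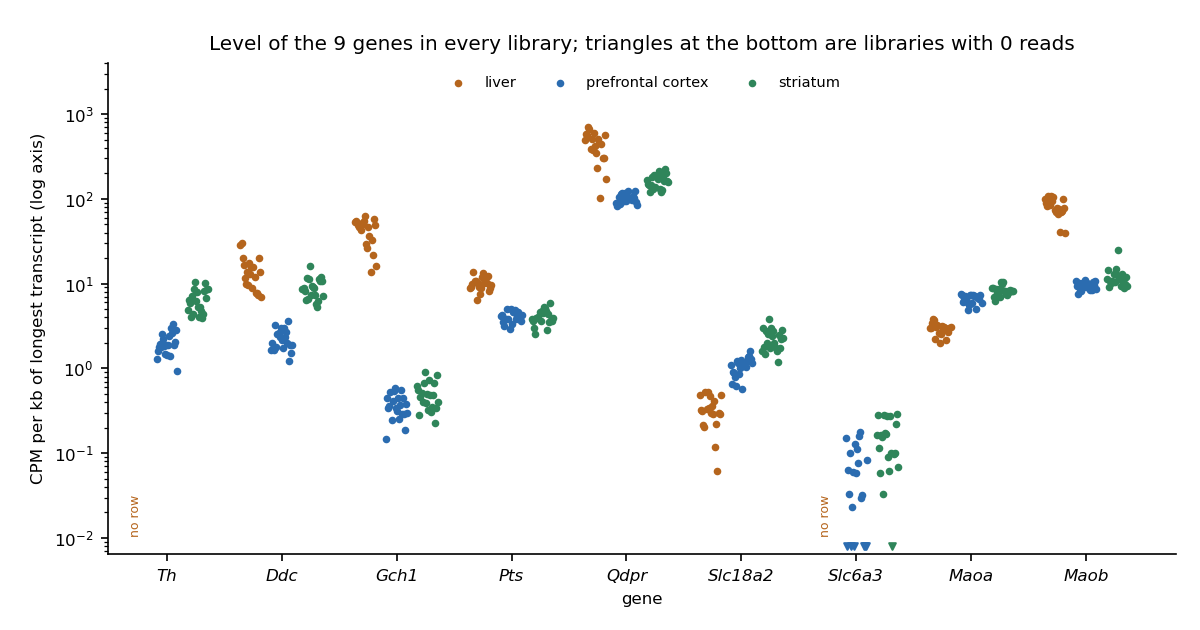
Level of each gene in every library as CPM per kilobase of its longest reference transcript, on a log axis, with liver in orange, prefrontal cortex in blue and striatum in green. Triangles at the bottom stand for libraries with 0 reads, and "no row" marks genes that the liver table does not list. Qdpr was highest in each tissue and Slc6a3 lowest in the brain regions.

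Per kilobase of transcript, the cofactor-recycling gene Qdpr led in every tissue. Its level per kilobase was 437 ± 161 CPM in the liver (SD, n = 20), 162 ± 30.5 in the striatum (SD, n = 21) and 101 ± 12.6 in the prefrontal cortex (SD, n = 21). By this length Maob followed, at 81.3 ± 19.4 CPM per kilobase in the liver, 11.9 ± 3.45 in the striatum and 9.41 ± 0.957 in the prefrontal cortex. In the liver the order went on with Gch1 at 42.1 ± 14.3, Ddc at 14.3 ± 6.58, Pts at 10.1 ± 1.84, Maoa at 2.92 ± 0.460 and Slc18a2 at 0.328 ± 0.129 CPM per kilobase. In the striatum Ddc (9.01 ± 2.64) and Maoa (8.29 ± 1.09) differed by less than their SDs, and Th was at 6.50 ± 2.07. Pts (4.07 ± 0.842), Slc18a2 (2.24 ± 0.651), Gch1 (0.498 ± 0.184) and Slc6a3 (0.151 ± 0.0906) lay below these genes. Prefrontal cortex Maoa (6.58 ± 0.791) stood above Pts (4.07 ± 0.584), and Ddc (2.26 ± 0.628) and Th (2.01 ± 0.600) did not differ beyond their SDs. Slc18a2 was at 1.06 ± 0.272, Gch1 at 0.371 ± 0.121 and Slc6a3 at 0.0613 ± 0.0579 CPM per kilobase there. The longest reference transcripts of Pts, Gch1 and Slc18a2 are longer than their longest coding transcripts. Per kilobase of the longest coding transcript Pts was at 40.5 ± 7.40 CPM in the liver, which moves it above Ddc. It was at 16.4 ± 3.39 CPM in the striatum and 16.4 ± 2.35 CPM in the prefrontal cortex, which puts it above Maob and second to Qdpr in both regions. On that scale Gch1 was at 53.3 ± 18.01 CPM in the liver, 0.629 ± 0.232 in the striatum and 0.469 ± 0.153 in the prefrontal cortex. Slc18a2 was at 0.381 ± 0.149 CPM in the liver, 2.60 ± 0.755 in the striatum and 1.23 ± 0.315 in the prefrontal cortex. Neither gene's place in the order moved.

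Maob exceeded Maoa by far in the liver and little in the brain. On the per-kilobase scale the Maob to Maoa ratio of the vehicle libraries was 28.6 in the liver, 1.47 in the striatum and 1.38 in the prefrontal cortex (geometric means, n = 4 each). The log2 ratio was 4.84 ± 0.196 in liver vehicle and 4.52 ± 0.643 at 6 mg/kg (SD, n = 4 and n = 6). That difference of -0.32 gave p = 0.376 in a two-sided exact permutation test. None of the 9 comparisons of this ratio with vehicle passed after Benjamini-Hochberg adjustment over the 9, where the smallest adjusted p of the exact tests was 0.762.

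In vehicle mice the striatum held more transcript than the prefrontal cortex for the dopamine-making and packaging genes. In the edgeR fit of vehicle striatum against vehicle prefrontal cortex, 21.4% of 15402 genes passed an adjusted p of 0.05, and 4 of the 8 tested monoamine genes did, all higher in the striatum. Ddc was at 12.8 to 17.8 CPM in the striatum and at 3.29 to 6.62 in the prefrontal cortex, and its log2 difference was 1.83 (SE 0.275, edgeR adjusted p = 4.99e-06). Th was at 7.88 to 12.3 and 2.51 to 3.77 CPM, a log2 difference of 1.61 (SE 0.291, edgeR adjusted p = 6.43e-05). Neither gene's ranges overlapped, as was so for 25% of the 14617 genes that passed the filter in both tissues. Slc18a2 differed by 1.07 (SE 0.266, edgeR adjusted p = 0.00268), and without the vehicle animal numbered 4 by 0.67 with an edgeR adjusted p of 0.127. Qdpr differed by 0.60 (SE 0.152, edgeR adjusted p = 0.00312). The log2 differences of Maoa (0.10), Maob (0.19), Gch1 (0.50) and Pts (-0.31) did not pass. The median over the 8 genes was 0.55, beside 0.02 over all genes tested.

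The liver stood apart from the brain mainly through the cofactor genes, Maob and Ddc. In liver against prefrontal cortex 80.8% of 14553 genes passed, as did 5 of the 7 genes tested, all higher in the liver. The log2 differences were 8.35 for Gch1 (SE 0.433), 4.54 for Ddc (SE 0.323), 4.37 for Maob (SE 0.218), 3.74 for Qdpr (SE 0.322) and 2.51 for Pts (SE 0.187). Gch1 was at 163 to 191 CPM in the vehicle livers and at 0.519 to 1.58 CPM in the vehicle prefrontal cortex. In liver against striatum 80.4% of 14663 genes passed, as did 6 of 7, with Slc18a2 lower in the liver by 1.42 on the log2 scale (SE 0.351) and Gch1 (7.83), Maob (4.17), Qdpr (3.13), Pts (2.80) and Ddc (2.70) higher. These are shares near the background, since most genes differ between liver and brain. The position of Maoa depended on the scaling. Its vehicle levels, scaled within each tissue, were 13.8 ± 1.62 CPM in the liver, 28.4 ± 3.01 in prefrontal cortex and 32.2 ± 5.60 in striatum (SD, n = 4 each). With the trimmed mean of M values (TMM, edgeR's scaling) across both tissues, the log2 difference of liver from prefrontal cortex was 0.00 (SE 0.150), and scaled by library totals alone it was -0.82 (edgeR adjusted p = 1.37e-05). Against the striatum it was -0.11 with TMM, -0.33 with DESeq2 (adjusted p = 0.0346) and -0.91 with library totals.

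In the liver, Ddc fell at 6 mg/kg. The vehicle livers had 33.7, 40.5, 57.4 and 61.5 CPM of Ddc, with the higher pair from the animals numbered 3 and 4. The 0.1 mg/kg livers had 19.2, 20.1, 23.5 and 27.9 CPM, all below the lowest vehicle library, where 4.13% of liver genes had ranges that did not overlap between these groups. At 1 mg/kg the lowest, median and highest values were 18.2, 28.6 and 35.7 CPM, and at 6 mg/kg they were 14.1, 15.6 and 40.2 CPM. Of the 6 livers at 6 mg/kg, 5 lay below every vehicle liver and the animal numbered 55, at 40.2 CPM, lay among them. The mean was 48.3 ± 13.3 CPM for the vehicle livers (SD, n = 4) and 21.3 ± 10.6 CPM for those given 6 mg/kg (SD, n = 6). The fitted log2 change at 6 mg/kg was -1.18 (SE 0.267, 95% interval -1.70 to -0.65, edgeR adjusted p = 0.0271), a 2.26-fold lower level. Ddc was the 1 monoamine gene of 7 that passed, where 2.80% of the 12968 liver genes tested did. In a bulk sample, fewer cells that express a gene and less RNA per cell cannot be told apart.

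The fitted changes of Ddc at the lowest and highest dose were of like size. Against vehicle the log2 change was -1.09 at 0.1 mg/kg (SE 0.300, edgeR adjusted p = 0.876) and -0.80 at 1 mg/kg (SE 0.267, edgeR adjusted p = 0.508). The unadjusted p-values were 0.00142 and 0.00677. At these doses 0.0154% and 0% of liver genes passed, and 0 of 7 monoamine genes did, with 1 of 7 at an unadjusted p under 0.05 at each dose in edgeR and in DESeq2, which is Ddc in edgeR, beside 4.1% of the liver's genes for the lowest dose and 8.44% for the middle one. From 0.1 to 6 mg/kg the log2 difference was -0.08 (SE 0.273, 95% interval -0.62 to 0.45, edgeR adjusted p = 0.925). A slope over dose rank, which counts the 4 groups as equal steps, was -0.33 per step for Ddc (SE 0.0908, edgeR adjusted p = 0.0419), and 4.81% of liver genes passed that test. The call on the slope was lost when any of 9 of the 20 livers was left out, namely vehicle animals 3, 4, 7 and 8, 6 mg/kg animals 52, 53, 54 and 58 and 0.1 mg/kg animal 28, with edgeR adjusted p of 0.0519 to 0.125. Over mg/kg in place of rank it was lost too (edgeR adjusted p = 0.143). All of these comparisons with vehicle share the same 4 vehicle livers.

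The vehicle livers also stood apart in their clock genes. The difference between log2 Dbp, an output gene of the circadian clock, and log2 Arntl, a core clock gene that peaks at the opposite time of day, was 2.04 to 5.45 in the vehicle livers. It was 2.045 and 2.491 for vehicle animals 3 and 4, the pair with higher Ddc. For vehicle animals 7 and 8 it was 5.185 and 5.446. It was 6.17 to 7.98 at 0.1 mg/kg, 5.76 to 8.60 at 1 mg/kg and 6.58 to 8.48 at 6 mg/kg. No dosed liver overlapped with vehicle. Clock state and dosing therefore cannot be told apart in the livers. With this difference as a covariate the log2 change of Ddc at 6 mg/kg was -0.32 (edgeR adjusted p = 0.9995) and no gene of the 7 passed, nor did any other of the 12968 liver genes, of which 363 passed without the covariate and 471 kept an unadjusted p under 0.05 with it. DESeq2 was not run with this covariate. Within dose groups, over 20 livers, Ddc was lower where the clock measure was higher (Pearson r = -0.581, permutation p = 0.00817, adjusted p = 0.0655 over 21 relations; Spearman rho = -0.611, permutation p = 0.00852, adjusted p = 0.0358). Without the 2 livers farthest from the median of the clock measure r was -0.524. Ddc was also higher in livers with a larger library total, by rank (Pearson r = 0.561, permutation p = 0.0404, adjusted p = 0.151; Spearman rho = 0.638, permutation p = 0.00845, adjusted p = 0.0358; r = 0.461 without the 2 farthest). Totals were 8.95 to 10.18 M in vehicle and 7.38 to 10.11 M at 6 mg/kg, and the part of depth in the Ddc values was not tested. The 6 neuron markers summed to 6.79 to 37.5 CPM in the vehicle livers and to 7.47 to 46.7 CPM at 6 mg/kg. With that sum as a covariate the Ddc change was -1.14 (edgeR adjusted p = 0.0232). The 4 Kupffer cell markers, all 4 listed, summed to 67.3 to 108 CPM in the vehicle livers, to 116 to 157 CPM at 0.1 mg/kg, to 96.2 to 179 CPM at 1 mg/kg and to 109 to 225 CPM at 6 mg/kg. The vehicle range did not overlap with that of 0.1 or 6 mg/kg. The part of these cells in the Ddc values was not tested.

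The call on Ddc at 6 mg/kg rested on single libraries. Without the vehicle animal numbered 3 the edgeR adjusted p was 0.108, and without animal 4 it was 0.121. Without animal 58, 54 or 52 of the 6 mg/kg group it was 0.0726, 0.0545 or 0.0617. The log2 change stayed between -1.04 and -1.10 in these 5 fits. With the vehicle and 6 mg/kg livers fitted alone it was -1.17 (edgeR adjusted p = 0.0836), in a fit where 13 of all liver genes passed.

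**Figure D2:**
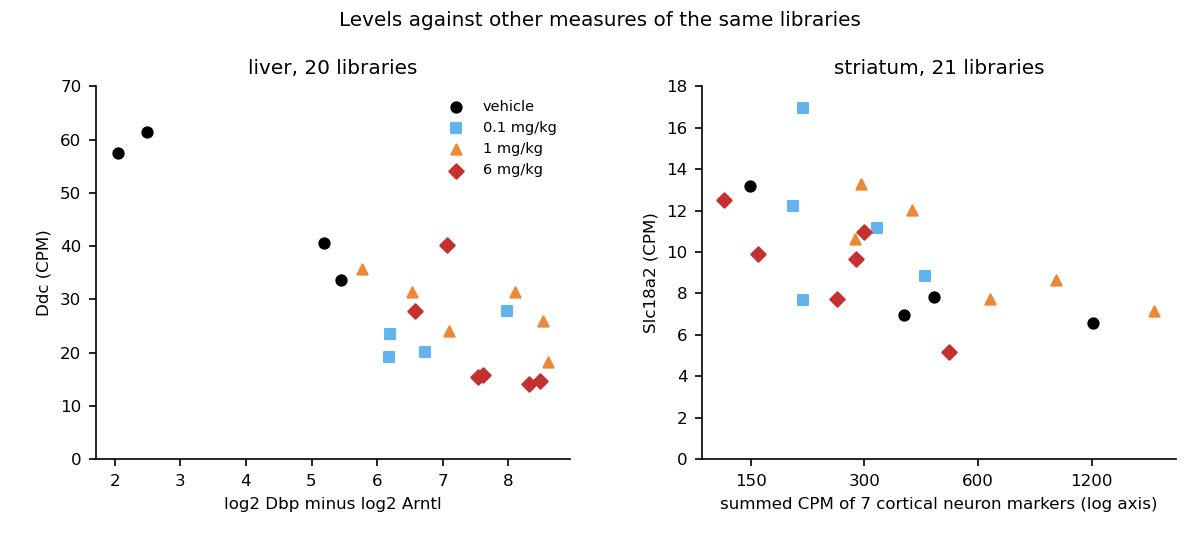
Left, Ddc in CPM against the difference between log2 Dbp and log2 Arntl in the 20 livers, with a symbol for each dose. The 4 vehicle livers sit at 2.04 to 5.45 and every dosed liver at 5.76 or above. Right, Slc18a2 in CPM against the summed CPM of 7 cortical neuron markers, on a log axis, in the 21 striatum libraries, where Slc18a2 was lower in libraries with more of these markers (r = -0.727 within dose groups).

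The cofactor genes Qdpr and Gch1 and the oxidase gene Maob had lower means at 6 mg/kg in the liver, and none passed. Qdpr was at 690, 790, 804 and 964 CPM in vehicle and at 141, 419 and 789 CPM (lowest, median and highest) at 6 mg/kg. The 6 mg/kg livers spread over a far wider range than vehicle, and 5 of the 6 lay below every vehicle liver. The log2 change was -0.90 (SE 0.335, 95% interval -1.55 to -0.24, edgeR adjusted p = 0.117). Without the 6 mg/kg animal numbered 56, which had the highest Qdpr of its group, it was -1.15 with an edgeR adjusted p of 0.0308. Gch1 was at 163, 171, 188 and 191 CPM in vehicle and at 48.5, 95.3 and 203 CPM at 6 mg/kg, where the range reached from below to above all vehicle livers. Its log2 change was -0.67 (SE 0.319, edgeR adjusted p = 0.203). Maob was at 198, 215, 237 and 263 CPM in vehicle and at 95.5, 172 and 241 CPM at 6 mg/kg, and the groups overlapped. Its log2 change was -0.50 (SE 0.215, edgeR adjusted p = 0.158).

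The same livers were low for several of these genes. The animals numbered 52 and 58 of the 6 mg/kg group had Gch1 at 48.5 and 56.5 CPM, Maob at 97.9 and 95.5 CPM and Qdpr at 141 and 235 CPM, the lowest values of all 20 livers for the 3 genes. Within dose groups over the 20 livers, Gch1 correlated with Maob (Pearson r = 0.75), with Qdpr (r = 0.74) and with Ddc (r = 0.73), as a description of libraries that share their depth and scaling. The SD of log2 CPM of Gch1 was 0.849 at 6 mg/kg and 0.108 in vehicle, and that of Qdpr was 0.909 and 0.198. Gch1 also went with the library total within dose groups (Pearson r = 0.698, permutation p = 0.00935, adjusted p = 0.0655; Spearman rho = 0.812, permutation p = 0.00096, adjusted p = 0.0101; r = 0.636 without the 2 farthest livers), over the family of 21 relations. The part of library depth in the Gch1 values was not tested. The 6 neuron markers, low in every liver, stood higher in livers with less Gch1 (Pearson r = -0.626, permutation p = 0.00372, adjusted p = 0.0655; Spearman rho = -0.746, permutation p = 0.00062, adjusted p = 0.0101; r = -0.586 without the 2 farthest livers). Livers with less Maob also had more of them, by rank (Pearson r = -0.519, permutation p = 0.024, adjusted p = 0.126; Spearman rho = -0.629, permutation p = 0.00664, adjusted p = 0.0358; r = -0.37 without the 2 farthest). With their sum as a covariate the change at 6 mg/kg was -0.68 for Gch1 (edgeR adjusted p = 0.121) and -0.46 for Maob (edgeR adjusted p = 0.158).

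The intervals of Pts, Maoa and Slc18a2 included 0 in the liver. At 6 mg/kg the log2 change was -0.07 for Pts (95% interval -0.43 to 0.30), -0.25 for Maoa (-0.58 to 0.07) and -0.45 for Slc18a2 (-1.31 to 0.40), which had only 2 to 18 counts per library at that dose. All 7 fitted changes at 6 mg/kg lay below 0, beside 48.1% of all liver genes tested, and their median was -0.50 beside 0.02. That of Pts was above 0 under an offset for GC and length (0.06) and without vehicle animal 8 (0.10). At 1 mg/kg 6 of the 7 were below 0, with a median of -0.28, and at 0.1 mg/kg 6 of 7, with a median of -0.11. No gene of the 7 had ranges apart from vehicle at 6 or 1 mg/kg, where 6.76% and 1.59% of liver genes did. The gene above 0 was Slc18a2 at both lower doses, with 0.10 and 0.24. For the other 5 genes beside Ddc the log2 changes at 1 and 0.1 mg/kg were -0.47 and -0.28 for Qdpr, -0.29 and -0.11 for Maoa, -0.28 and -0.01 for Maob, -0.25 and -0.09 for Gch1 and -0.04 and -0.13 for Pts. The 3 comparisons share the vehicle livers. An unadjusted p under 0.05 was reached by 4 of the 7 at 6 mg/kg, namely Ddc, Qdpr, Maob and Gch1, beside 24.2% of all liver genes. The count was 2, Ddc and Qdpr, under an offset for GC and length, in a fit of the 2 groups alone and without vehicle animal 3 or 8 or 6 mg/kg animal 52 or 58. It was 0 with the clock covariate.

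**Figure D3:**
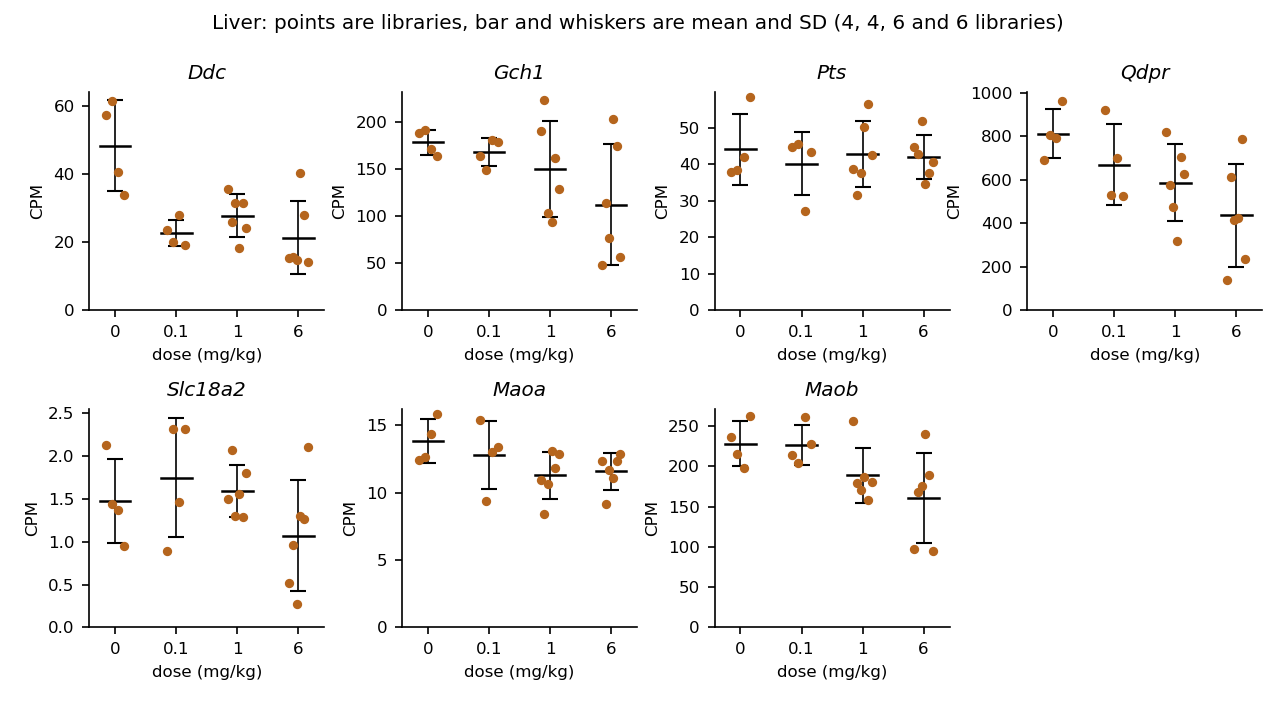
CPM of the 7 listed genes in each liver library by dose in mg/kg, with the mean and SD of each group in black. Ddc was at 33.7 to 61.5 CPM in vehicle and at 19.2 to 27.9 CPM at 0.1 mg/kg, and Gch1 and Qdpr spread widely at 6 mg/kg.

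In the prefrontal cortex no monoamine gene passed at any dose. At 6, 1 and 0.1 mg/kg 0% of the 14838 genes tested passed, and for the slope over dose rank 0.0202% did, with none of the 8 monoamine genes among them in edgeR or DESeq2. Over all genes DESeq2 passed 22, 0 and 1 at these doses and 65 for the slope. In edgeR 86 passed at 6 mg/kg with 1 surrogate variable and 16 against 0.1 mg/kg, with 0 of the 8 in either. The vesicular transporter gene Slc18a2 came nearest. It was at 2.84, 3.88, 4.00 and 4.76 CPM in vehicle and at 5.07, 5.82 and 7.13 CPM (lowest, median and highest) at 6 mg/kg. All 6 libraries at 6 mg/kg were above all 4 vehicle libraries, and 3.11% of the 14838 genes had ranges that did not overlap between these groups. At 0.1 mg/kg it was at 2.69, 3.49, 3.75, 5.12 and 5.35 CPM and at 1 mg/kg at 2.54, 4.60 and 5.54 CPM, both overlapping with vehicle. The other 7 genes overlapped with vehicle at every dose, and the share of all genes that did not was 2.06% at 0.1 mg/kg and 2.33% at 1 mg/kg. The log2 change at 6 mg/kg was 0.60 (SE 0.213, 95% interval 0.19 to 1.02, edgeR adjusted p = 0.389), and the slope was 0.20 per dose step (SE 0.0648, edgeR adjusted p = 0.269). These values rest on 25 to 76 counts per library. The 8 striatal neuron markers summed to 1142 to 3041 CPM in the vehicle libraries and to 1630 to 2821 CPM at 6 mg/kg, which overlap. The 11 endothelial and pericyte markers, all listed, summed to 337.6 to 353.6 CPM in vehicle and to 368 to 396.3 CPM at 6 mg/kg, which do not overlap. The part of these cells in the Slc18a2 values was not tested.

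Th, Ddc and the other genes of the prefrontal cortex overlapped with vehicle at 6 mg/kg. Th was at 2.51, 3.15, 3.46 and 3.77 CPM in vehicle and at 1.82, 4.58 and 6.50 CPM at 6 mg/kg, with a log2 change of 0.46 (95% interval -0.07 to 1.00). Ddc was at 3.29 to 6.62 CPM in vehicle and 2.47 to 7.39 at 6 mg/kg, with a log2 change of -0.06 (-0.56 to 0.43). The change was 0.16 for Qdpr (-0.05 to 0.37), 0.12 for Pts (-0.15 to 0.39), 0.01 for Maob (-0.21 to 0.23), -0.09 for Maoa (-0.31 to 0.13) and -0.03 for Gch1 (-0.71 to 0.65). The interval of Qdpr was the narrowest of the 8 and that of Gch1 the widest. At 6 mg/kg, 1 of the 8 genes reached an unadjusted p under 0.05 in edgeR and in DESeq2, beside 9.27% of all genes in edgeR, and at the lower doses 0 did in edgeR, beside 8.29% of the table for 1 mg/kg and 6.43% for 0.1 mg/kg. DESeq2 gave 1 at 1 mg/kg. At 1 mg/kg the log2 changes ran from 0.02 for Maob to 0.29 for Th, and at 0.1 mg/kg from -0.17 for Maoa to 0.54 for Gch1, where the smallest edgeR adjusted p was 0.588 and 0.742. The median change at 6 mg/kg was 0.06, beside 0.00 over all genes.

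In the striatum no monoamine gene passed either, and 0% of the 15118 genes tested passed at 6, 1 or 0.1 mg/kg or for the slope, by edgeR. DESeq2 also passed none of the 8. Over all genes DESeq2 passed 27, 5 and 1 at the 3 doses. In edgeR a slope over mg/kg passed 1862 genes and 6 mg/kg against 0.1 mg/kg passed 440, with 0 of the 8 in either. Th was at 7.88, 9.56, 11.7 and 12.3 CPM in vehicle and at 8.54, 16.3 and 19.9 CPM at 6 mg/kg. Of the 6 libraries at 6 mg/kg, 5 were above all vehicle libraries and 1, of the animal numbered 52, was among them. The log2 change was 0.55 (SE 0.237, 95% interval 0.09 to 1.01, edgeR adjusted p = 0.273). At 1 mg/kg Th was at 7.74, 9.84 and 15.7 CPM, with a log2 change of -0.02, and at 0.1 mg/kg at 8.61, 12, 14.1, 16.9 and 20.6 CPM, with a change of 0.48, so that the doses were not in order.

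Pts and Qdpr, of the cofactor pathway, were next in the striatum. Pts was at 10.7 to 16.2 CPM in vehicle and 14.7 to 24.97 at 6 mg/kg, with a log2 change of 0.37 (SE 0.169, edgeR adjusted p = 0.302). For 1 mg/kg the Pts value was 0.49 (SE 0.168, edgeR adjusted p = 0.676). Qdpr was at 165 to 233 CPM in vehicle and 220 to 312 at 6 mg/kg, with a change of 0.33 (SE 0.156, edgeR adjusted p = 0.314). The value for Ddc was 0.28 (95% interval -0.17 to 0.73), for Slc18a2 0.11 (-0.39 to 0.60), for Maoa 0.06 (-0.17 to 0.28), for Maob -0.09 (-0.48 to 0.30) and for Gch1 0.04 (-0.65 to 0.74). The vehicle and 6 mg/kg ranges of all 8 genes overlapped, where those of 3.58% of all striatum genes did not. The 8 also overlapped with vehicle at 1 and 0.1 mg/kg, where 0.880% and 1.31% of all genes did not. Library totals did not, at 10.15 to 10.46 M in vehicle and 8.55 to 9.2 M at 6 mg/kg, and the part of depth in these values was not tested. An unadjusted p under 0.05 was reached by 3 of the 8 at 6 mg/kg, by 2 at 1 mg/kg and by 0 at 0.1 mg/kg, in edgeR and in DESeq2 alike. Over all genes these shares were 15.7%, 7.36% and 2.53% in edgeR. The count at 6 mg/kg was 1 under an offset for GC and length or with 1 surrogate variable, and it was 0 against 0.1 mg/kg and without vehicle animal 8 or 6 mg/kg animal 54. At 1 mg/kg the log2 changes ran from -0.09 for Gch1 to 0.49 for Pts, and at 0.1 mg/kg from -0.05 for Maob to 0.48 for Th. The median change at 6 mg/kg was 0.19 beside 0.01 over all genes.

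**Figure D4:**
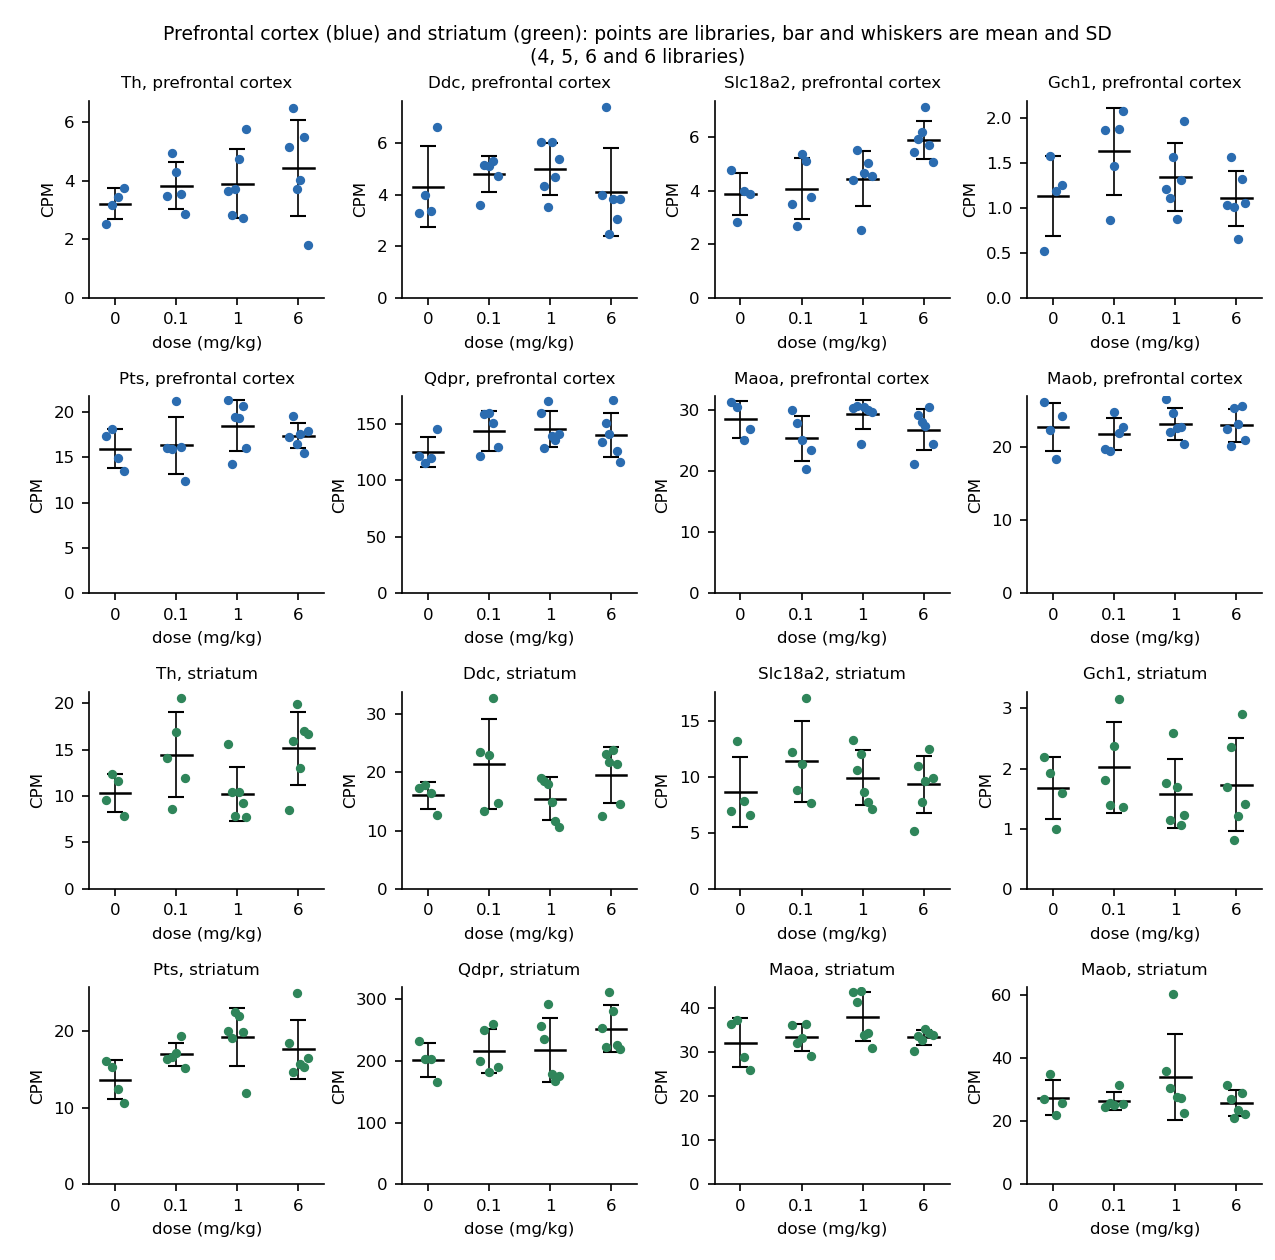
CPM of 8 genes in each prefrontal cortex library (blue, upper rows) and striatum library (green, lower rows) by dose in mg/kg, with the mean and SD of each group in black. In the prefrontal cortex Slc18a2 was at 2.84 to 4.76 CPM in vehicle and at 5.07 to 7.13 CPM at 6 mg/kg, the pair of groups in the plot that does not overlap at 6 mg/kg.

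In the striatum most of these genes varied together between libraries. The 8 genes form 28 pairs, and within dose groups 27 of the correlations were above 0. The median Pearson r was 0.46 over 21 libraries, beside 0.06 over 28 pairs in the prefrontal cortex and -0.07 over 21 pairs in the liver. The share over pairs of other genes was not computed, so the pattern is not known to be particular to these genes. All 8 were lower in striatum libraries with a larger total (r from -0.576 for Pts to -0.343 for Qdpr). The part of depth in these pairs was not tested. Ddc went with Slc18a2 (r = 0.79) and Th (r = 0.72), and Th with Slc18a2 (r = 0.70). As a description of libraries that share depth and scaling, the genes most like Ddc in the striatum were Pcbd1 (r = 0.888) and Nap1l5 (r = 0.878) of 12180 compared. Zcchc12 (0.858) was among those most like Th, those most like Slc18a2 were Rxfp3 (0.920) and AW551984 (0.909), and those most like Qdpr were Septin4 (0.936) and Litaf (0.922). Gabrg1 and Rftn2 were most like Maoa, Ntng1 and Slc31a1 most like Maob, Prpf39 and Slirp most like Pts, and Cfap44 and Kank1 most like Gch1.

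Each gene was set against 3 marker sums of the striatum libraries, 24 relations in all, within dose groups. The 3 scores tested in each tissue were picked from a longer list of scores. Correlations with the others were computed without a p-value, and the adjusted p does not cover them. Some were as large, as for Qdpr with the astrocyte sum in the liver (r = 0.948) and with the microglia sum in the prefrontal cortex (r = 0.688). Slc18a2 was lower in libraries with more cortical neuron markers (Pearson r = -0.727, permutation p = 0.00038, adjusted p = 0.00228; Spearman rho = -0.722, permutation p = 0.00102, adjusted p = 0.00612; r = -0.649 without the 2 farthest libraries). Maoa was too (Pearson r = -0.795, permutation p = 0.00032, adjusted p = 0.00228; Spearman rho = -0.791, permutation p = 0.00041, adjusted p = 0.00456; r = -0.715 without the 2 farthest). For Th the Pearson r was -0.594 (permutation p = 0.00374, adjusted p = 0.015) and rho -0.538 (permutation p = 0.0174, adjusted p = 0.0579), and r was -0.561 without the 2 farthest. For Ddc r was -0.547 (permutation p = 0.0057, adjusted p = 0.0195) and rho -0.518 (permutation p = 0.0194, adjusted p = 0.0579), and r was -0.490 without the 2 farthest. The relations of Maob, Gch1, Pts and Qdpr with these markers did not pass. Values below 0 were not particular to the cortical markers. With the 6 neuron markers r was -0.631 for Slc18a2, -0.582 for Maoa, -0.614 for Th and -0.663 for Ddc. With the striatal neuron markers r was -0.525, -0.208, -0.294 and -0.422 in that order. These relations are among those without a p-value. The 7 cortical markers summed to 149 to 1206 CPM in vehicle and to 127 to 502 CPM at 6 mg/kg, with medians of 420 and 270 CPM, so their level was not the same in the groups in which Th is compared above. The 6 neuron markers summed to 3623 to 4202 CPM in vehicle and to 3312 to 3726 CPM at 6 mg/kg, which overlap. The part of these cells in the dose values was not tested.

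Qdpr and Maob went with oligodendrocyte and choroid plexus markers. Qdpr was higher in striatum libraries with more of the 8 oligodendrocyte markers (Pearson r = 0.849, permutation p = 8e-05, adjusted p = 0.00096; Spearman rho = 0.819, permutation p = 0.00025, adjusted p = 0.00456; r = 0.801 without the 2 farthest). These markers summed to 4754 to 7190 CPM in vehicle and 7159 to 9968 CPM at 6 mg/kg, with medians of 6804 and 7810 CPM. Their part in the Qdpr values by dose was not tested. Maob was higher in libraries with more of the 5 choroid plexus markers (Pearson r = 0.850, permutation p = 6e-05, adjusted p = 0.00096; Spearman rho = 0.783, permutation p = 0.00057, adjusted p = 0.00456; r = 0.789 without the 2 farthest). The choroid plexus sum ran from 22.4 to 4360 CPM, with the highest value in the 1 mg/kg library of animal 45, which also had the highest Maob of the striatum at 60.4 CPM. That library also had the highest oligodendrocyte sum, 12100 CPM. Maob went with the oligodendrocyte markers as well by Pearson's r (r = 0.725, permutation p = 0.00305, adjusted p = 0.0146; Spearman rho = 0.544, permutation p = 0.0197, adjusted p = 0.0579), with r = 0.431 without the 2 farthest libraries. Maoa went with the oligodendrocyte sum (r = 0.638, adjusted permutation p = 0.0348) and with the choroid plexus sum (r = 0.555, adjusted permutation p = 0.0497), and Qdpr with the choroid plexus sum (r = 0.581, adjusted permutation p = 0.0497), where the adjusted p of the Spearman rho was 0.0579 to 0.0619 for these 3. The relation of Gch1 with the choroid plexus sum lay at the threshold (r = 0.526, adjusted permutation p = 0.05, and 0.127 for the Spearman rho), and the smallest adjusted permutation p of Pts was 0.061. The part of these cells in the Maob values was not tested. Ddc of the prefrontal cortex was higher where the oligodendrocyte sum was (Pearson r = 0.683, permutation p = 0.00049, adjusted p = 0.0118 over 24 relations; Spearman rho = 0.652, permutation p = 0.0028, adjusted p = 0.0672; r = 0.622 without the 2 farthest). Qdpr there was lower where the sum of 8 astrocyte markers was higher (Pearson r = -0.684, permutation p = 0.00317, adjusted p = 0.038; Spearman rho = -0.644, permutation p = 0.00637, adjusted p = 0.0764; r = -0.515 without the 2 farthest).

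The liver showed other neighbours. Over the 20 livers and within dose groups, Gch1 was most like Suclg1 (r = 0.978) and Ssu72 (0.965) of 9515 genes compared, Qdpr most like Nipsnap1 (0.950) and Aldh1l1 (0.947), Maob most like Cd164 (0.943) and Mtpn (0.913), and Ddc most like Slc39a8 (0.902) and Dhdh (0.898). Pts was most like Tpt1 (0.896) and Slc35e2 (0.872). For Maoa (Cdk19, 0.742, and Lrrc32, 0.724) and Slc18a2 (Gpr107, 0.794, and Nsun4, 0.738) the highest values were lower.

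The effect of 6 mg/kg was set against that in another tissue by an interaction term. For liver against striatum 0.130% of genes passed and 0 of the 7 monoamine genes, with 2 at an unadjusted p under 0.05, beside 16.2% of all genes. The difference in effect was -1.47 for Ddc (SE 0.375, edgeR adjusted p = 0.0714) and -1.23 for Qdpr (SE 0.392, edgeR adjusted p = 0.142), and from -0.72 for Gch1 to -0.32 for Maoa among the other 5 genes. Ddc passed in DESeq2 (-1.44, adjusted p = 0.0225) and in edgeR with the animal number as a block (-1.52, adjusted p = 0.0375). Of all 14663 genes, 19 passed in the main fit, 247 in DESeq2 and 6 with the block. For liver against prefrontal cortex 3% of genes passed and 0 of 7 monoamine genes in edgeR and DESeq2, with 4 at an unadjusted p under 0.05, beside 21.1% of all genes in edgeR. The differences were -1.13 for Ddc (SE 0.392, edgeR adjusted p = 0.0940), -1.07 for Qdpr (SE 0.374, edgeR adjusted p = 0.0966), -1.08 for Slc18a2 (SE 0.439, edgeR adjusted p = 0.149) and -0.53 for Maob (SE 0.249, edgeR adjusted p = 0.214). Those of Gch1 (-0.66), Pts (-0.20) and Maoa (-0.18) had intervals that included 0. For striatum against prefrontal cortex 0% of 15402 genes passed and 0 of the 8, with 0 at an unadjusted p under 0.05 in edgeR and DESeq2, beside 6.85% of all genes in edgeR. The differences there ran from -0.51 for Slc18a2 to 0.33 for Ddc.

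**Figure D5:**
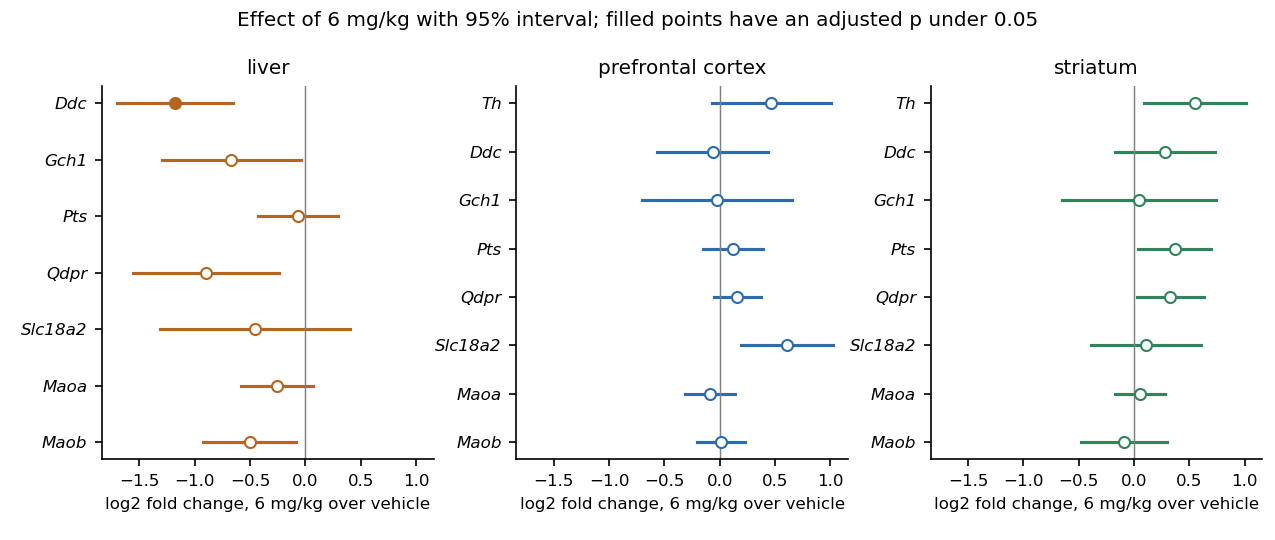
Log2 fold change at 6 mg/kg over vehicle for each tested gene in the liver, prefrontal cortex and striatum, with 95% intervals as lines. The filled point, Ddc in the liver at -1.18, passed an adjusted p of 0.05, and open points did not.

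The wider monoamine pathway was described by 37 further genes, of which 23 were tested in liver, 24 in prefrontal cortex and 25 in striatum. At 6, 1 and 0.1 mg/kg and for the slope, none passed in edgeR in any tissue. At 6 mg/kg an unadjusted p under 0.05 was reached by 2 of 23 in liver, 1 of 24 in prefrontal cortex and 5 of 25 in striatum, beside 24.2%, 9.27% and 15.7% of all genes. The 2 with the smallest p in the liver were Hdc, which makes histamine (log2 change 1.06, SE 0.455, edgeR adjusted p = 0.161), and Hnmt, which inactivates it (-0.63, SE 0.277, edgeR adjusted p = 0.168). Those of the prefrontal cortex were Aldh1a1, an aldehyde dehydrogenase of dopamine neurons and other cells (0.40, SE 0.109, edgeR adjusted p = 0.285), and Tph2, the serotonin-making hydroxylase of the brain (0.73, SE 0.377, edgeR adjusted p = 0.561). In the striatum Aldh2, the mitochondrial aldehyde dehydrogenase, was among them (0.21, SE 0.0956, edgeR adjusted p = 0.289). The median change of the list at 6 mg/kg was -0.34 in liver, -0.02 in prefrontal cortex and 0.10 in striatum, beside 0.02, 0.00 and 0.01 over all genes.

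Between tissues of vehicle mice some of the list passed. In striatum against prefrontal cortex 5 of 25 were higher and 2 lower, beside 21.4% of all genes that passed in either direction. The vesicle protein gene Sv2b (-1.80) was lower in the striatum, and Pcbd1, which regenerates the pterin cofactor with Qdpr (1.46), Slc22a3, a low-affinity monoamine transporter (0.87), Aldh2 (0.44) and Slc29a4, another such transporter (0.81), were higher. In liver against each brain region 26 of 26 passed, 21 of them higher in the liver, where 80.8% of all genes passed against the prefrontal cortex and 80.4% against the striatum. The 6 with the smallest p against the prefrontal cortex were all higher in the liver, among them Pcbd1 (log2 difference 8.001), Slc22a3 (8.82) and the sulfotransferase gene Sult1a1 (7.67).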

How the data were processed

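The authors deposited read counts as whole numbers, in 1 table a tissue with Entrez identifiers. HISAT2, FastQC and the build mm10 are named per the submitters' processing notes. The counting tool, annotation and strand setting are not given in the sources used here. The smallest gene total in each table was 10 counts, and genes below it were not analysed here.

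Libraries were grouped by their tissue and treatment labels, and p-values measure the spread between libraries. Counts were fitted per tissue with edgeR 4.0.16 in R 4.3.3 (filterByExpr, TMM, robust quasi-likelihood test), with all dose groups in 1 fit and Benjamini-Hochberg adjustment over all genes. Standard errors are the absolute log2 change over the square root of F, and 95% intervals are 1.96 SE. Tissues were compared in pairs, with all libraries of both in 1 fit grouped by tissue and dose. The contrasts used the vehicle and 6 mg/kg groups. The same animal number in several tissues was taken as the same mouse. Its libraries deviated together little (mean r over genes 0.0936 for striatum and prefrontal cortex, 0.0039 for liver and prefrontal cortex, 0.0046 for liver and striatum), so the animal block was an alternative. Levels are TMM-scaled CPM. Lengths came from GENCODE vM21 transcripts and promoters from RefSeq (GRCm38.p6), which matched 8 of the 9 genes. The fits were tested on simulated data. Correlations used deviations of log2 values from dose-group means and 100000 permutations within groups, with scipy 1.17.1.

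Alternatives were DESeq2 1.42.0, no filter, median-ratio size factors, a mean of at least 10 counts, an offset for GC content and length, 0.1 mg/kg as reference, 1 surrogate variable (sva 3.50.0), 2 groups alone, a slope over mg/kg, the animal block and leaving out each replicate. The clock covariate, the neuron marker covariate and library totals without TMM were chosen after seeing the data. The genes and lists were chosen with earlier results of these data known. The 9 genes were to be named in every comparison, with those not given singly given by range or count, of the pathway list at most 6 passing genes or else the 2 with the smallest p, and for likeness the 2 genes with the highest r among those with a mean of at least 5 CPM. Some genes that this rule picks are not reported here.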

Additional observations from a re-analysis of the deposited data

Results flagged for a closer look

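Each gene's 4 to 6 libraries per group were checked for a highest or lowest value whose gap to the nearest other library was large beside the whole range of the group (Dixon's 95% critical value). Of 92 groups checked 9 had such a library, where chance gives about 1 in 20, or 4.6.

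In the liver, Maob was at 256.3 CPM in the 1 mg/kg animal numbered 41, next to 186.8 CPM, and Pts was at 27.18 CPM in the 0.1 mg/kg animal 28, next to 43.25 CPM. In the prefrontal cortex, Ddc was at 7.392 CPM in the 6 mg/kg animal 53, next to 4.006 CPM, and Maoa at 24.45 CPM in the 1 mg/kg animal 45, next to 29.62 CPM. In the striatum, Th was at 15.65 CPM in the 1 mg/kg animal 41, next to 10.46 CPM. Maob was at 60.36 CPM in the 1 mg/kg animal 45, next to 35.76 CPM, and at 31.56 CPM in the 0.1 mg/kg animal 28, next to 25.82 CPM. Pts was at 24.97 CPM in the 6 mg/kg animal 54, next to 18.43 CPM, and at 11.88 CPM in the 1 mg/kg animal 50, next to 19.09 CPM. The 1 mg/kg library of animal 45 in the striatum also had the highest choroid plexus marker sum.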

How the results depend on the processing

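Among 2371 values of single genes under the alternatives, 2217 kept their direction and their side of the threshold, 19 lost a call, 15 gained one and 120 changed sign. Of the changes of sign, 118 had no unadjusted p under 0.05 in either fit and a main value of at most 0.33 in size, among them Maoa in vehicle liver against prefrontal cortex, at -0.21 with DESeq2. The other 2 were Ddc in the liver at 1 mg/kg, at 0.0468 with the clock covariate, and Maoa in vehicle liver against prefrontal cortex, at -0.82 with library totals. The 1 passing gene in the liver at 6 mg/kg became 0 with 0.1 mg/kg as reference, with the clock covariate and with the 2 groups alone, where the count over all genes went from 363 to 5, 0 and 13, and leaving out 1 library gave 0 to 2. The 1 gene passing the liver slope became 2 with DESeq2 and 0 over mg/kg, and 0 to 2 without 1 library. Over all liver genes the slope passed 624 in the main fit, 1196 with DESeq2 and 483 over mg/kg. For the difference in the 6 mg/kg effect, the count of 0 became 1 with DESeq2 for liver against striatum. Calls over all genes rose from 19 to 247 there. Without 1 animal the count of monoamine genes was 0 to 2. For liver against prefrontal cortex it was 0 to 1 without 1 animal. With the animal number as a replicate block it was 1 for liver against striatum (Ddc, -1.52, adjusted p = 0.0375), where 6 of all genes passed. The block changed no other count of monoamine genes. The cause of these changes was not tested. The other counts of monoamine genes at an adjusted p under 0.05 stayed within 1.5 times under the alternatives run. Counts at an unadjusted p moved more, from 4 to between 0 and 4 in the liver and from 3 to between 0 and 3 in the striatum at 6 mg/kg. Depth limits Slc6a3 in both brain regions, Gch1 in the brain and Slc18a2 in the liver.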
